A study of Mus musculus with 14 samples.

Results

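The Ikaros family is a set of zinc finger transcription factors of lymphocytes. Its 5 members in the mouse, Ikzf1 (Ikaros), Ikzf2 (Helios), Ikzf3 (Aiolos), Ikzf4 (Eos) and Ikzf5 (Pegasus), were taken by name from the 30284 genes measured, and they were represented by 25 transcripts. Messenger RNA was sequenced from regulatory T cells of mouse spleen, CD4 T cells that restrain immune responses under the transcription factor Foxp3, sorted for Foxp3 and a yellow fluorescent protein. The KO-labelled units came from Tln1fl/flFoxp3cre/wt mice (3 units, 6 samples) and the WT units from Tln1wt/wtFoxp3cre/wt mice (4 units, 8 samples), all C57/B6. Every mouse carried 1 Foxp3cre allele, so Cre driven by the Foxp3 locus was present in both groups; ages and sexes are not used here. Libraries were made from 1 or 2 animals, and a unit is the sum of its 2 sequenced samples. Tln1 encodes talin, the adaptor that switches integrins to their active form, and the comparison asks what regulatory T cells transcribe when it is lost.

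Members of the family bind DNA through a cluster of zinc fingers near the amino terminus and pair with themselves and each other through a pair of fingers at the carboxyl terminus. They recruit the NuRD, Sin3 and CtBP corepressors. Forms that lack DNA-binding fingers but keep the terminal pair can still dimerise, and such forms of Ikaros are known to block the full-length protein. Helios marks most regulatory T cells of thymic origin and helps to keep their identity stable. Eos binds Foxp3 and takes part in silencing of Il2. Aiolos represses Il2 in helper T cells and is abundant in B cells, Ikaros is present in nearly all lymphocytes, and Pegasus is the most distant relative, with a different DNA preference.

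The members share most of 1 exon, which is shown because it carries the core of the DNA-binding cluster. In Ikzf1, Ikzf2, Ikzf3 and Ikzf4 this exon has 168 bases, and in each it encodes 2 whole motifs of the pattern cysteine, 2 residues, cysteine, 12 residues, histidine, 3 to 5 residues, histidine. The codons of those cysteines and histidines are in capitals. Sequences and annotation are those of GENCODE on build GRCm38, written 5′ to 3′ on the strand of the gene.
Ikzf1, chr11:11754007-11754174, + strand: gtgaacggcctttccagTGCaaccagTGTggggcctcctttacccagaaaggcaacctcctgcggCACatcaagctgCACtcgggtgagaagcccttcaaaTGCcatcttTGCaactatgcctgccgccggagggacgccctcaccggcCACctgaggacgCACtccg
Ikzf2, chr1:69570493-69570660, - strand: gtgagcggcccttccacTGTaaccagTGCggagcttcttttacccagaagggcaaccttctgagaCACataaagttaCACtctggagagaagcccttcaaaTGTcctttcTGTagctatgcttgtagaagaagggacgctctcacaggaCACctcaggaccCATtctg
Ikzf3, chr11:98488852-98489019, - strand: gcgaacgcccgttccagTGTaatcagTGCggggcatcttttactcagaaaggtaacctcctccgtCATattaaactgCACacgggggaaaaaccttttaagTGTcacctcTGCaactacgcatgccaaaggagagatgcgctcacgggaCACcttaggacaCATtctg
Ikzf4, chr10:128640141-128640308, - strand: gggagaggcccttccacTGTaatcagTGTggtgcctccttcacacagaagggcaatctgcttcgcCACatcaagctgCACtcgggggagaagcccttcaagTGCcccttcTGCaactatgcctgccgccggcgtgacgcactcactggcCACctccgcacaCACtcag
The closest pair was Ikzf1 and Ikzf4, with 138 of 168 bases identical (82.1%). The least alike were Ikzf2 and Ikzf3, and Ikzf3 and Ikzf4, each with 123 (73.2%). Over whole genes little sequence was shared: of the words of 31 bases in a member, 0% were found in another gene for Ikzf1, 0.111% for Ikzf2, 0.0115% for Ikzf3 and 0.921% for Ikzf4. Ikzf5 shared 18.9% of its words with Gm10356, which was assigned 7 reads in KO-labelled unit 1 and 0 in the other 6 units. The kit did not keep the strand, and 4652 of the 5721 exon bases of Ikzf5 also lie in annotated exons of Pstk on the opposite strand. The measured transcripts of Pstk shared no word of 31 bases with Ikzf5. Reads of its other annotated forms cannot be told from those of Ikzf5, so the level of Ikzf5 is uncertain.

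The units held between 39314880 and 56772674 estimated reads in the KO-labelled group and between 13017008 and 39706502 in the WT group. Foxp3 was at 370, 514 and 401 CPM (reads scaled to library size after TMM) in the KO-labelled units, against 468, 324, 478 and 406 CPM in the WT units (edgeR FDR 0.923). The 10 T cell markers summed to 3840 to 4660 CPM in the KO-labelled units and 4040 to 5560 CPM in the WT units, and Cd3g alone passed the test, as lower. Tln1 had 788, 901 and 1010 CPM in the KO-labelled units and 634, 543, 847 and 649 CPM in the WT units (log2 fold change 0.43 ± 0.18, edgeR FDR 0.126), so the label is not borne out by a lower Tln1 level. The floxed exons are not given by the labels, and a transcript can outlast their loss. The summed CPM of markers of other cells was higher in every KO-labelled unit than in any WT unit for 6 of 6 lists. This did not hold for every single marker, and the values are given beside the family's results. Of 15775 genes tested, 2144 passed FDR 0.05 (13.6%), of which 52.1% were higher; with an offset for GC content and length the share higher was 66.2% of 1342.

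Ikzf2 and Ikzf4 were lower in the KO-labelled units, and the other members did not pass the test. Ikzf2 averaged 589 ± 188 CPM in the KO-labelled units and 1110 ± 287 CPM in the WT units, and Ikzf4 averaged 116 ± 31.7 CPM in the KO-labelled units and 194 ± 5.45 CPM in the WT units (SD, n = 3 KO-labelled and 4 WT units). Thus 2 of 5 members were called, both lower, where 6.52% of all genes tested were called lower. The CPM ranges of the groups did not overlap for these 2 genes, which held in the same direction for 14.1% of genes tested. In bulk samples, fewer cells that express a gene and less RNA of it per cell cannot be told apart.

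**Figure D1:**
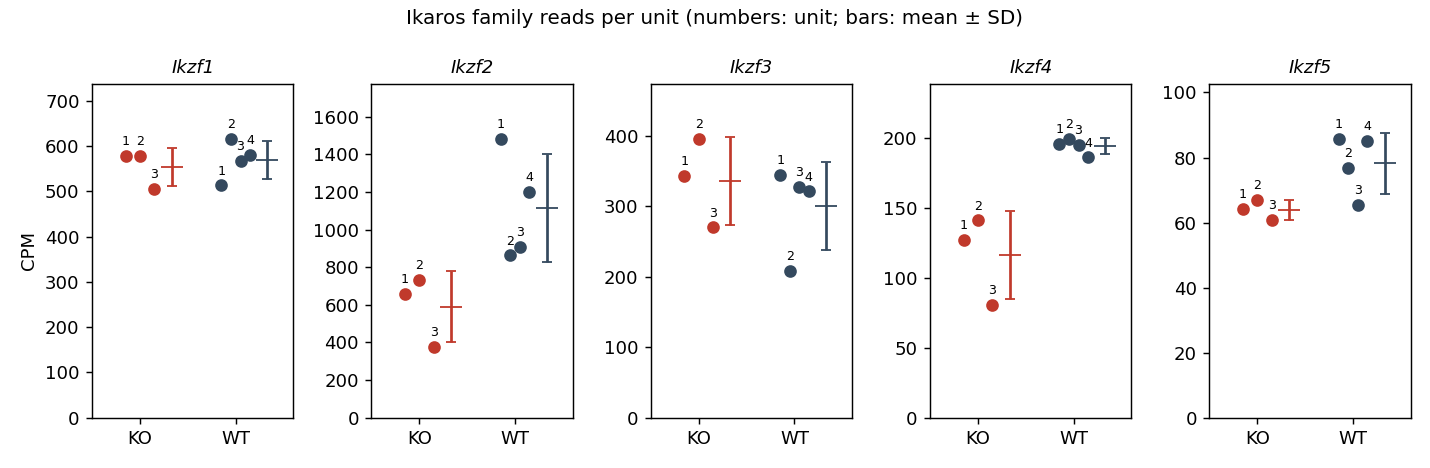
CPM of each family member (vertical axes, from 0) in the 3 KO-labelled units (red, left) and the 4 WT units (dark, right); points are units with their numbers, and bars give the mean ± SD. Ikzf2 and Ikzf4 are the members whose groups do not overlap, and unit KO3 is the lowest of the KO-labelled units for all 5 members.

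Helios, Ikzf2, lies at chr1:69531214-69687245 on the - strand. It had 659, 733 and 377 CPM in the KO-labelled units, against 1480, 863, 907 and 1200 CPM in the WT units. The highest KO-labelled unit was below the lowest WT unit, and within each group the extremes differed widely. The log2 fold change was -0.92 ± 0.27 (SE), a level 0.529 of that in WT, and it passed narrowly (edgeR FDR 0.0491). The sign was negative in all 21 alternative fits, but the call was lost whenever any 1 of the 7 units was left out: the values then lay between -1.10 and -0.68, with edgeR FDR between 0.0552 and 0.121, the smallest change being that without KO3. With an offset for GC content and length the change was -0.37 ± 0.15 (edgeR FDR 0.159), and with an offset for effective transcript length it was -0.35 ± 0.24 (edgeR FDR 0.375). The latter offset weighs transcripts by TPM, so short forms with few reads count heavily in it. The transcript Ikzf2-206 has an effective length of 162 bases and the main form, Ikzf2-201, one of 9079. Their part in the smaller change was not tested. Ikzf2 has 41.6% GC in its exons. Genes of 40% to 55% GC, near the lower bound of which it falls, had a median log2 fold change of -0.02. The median was -0.58 for genes under 40% GC and 0.38 for genes over 55% GC.

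Eos, Ikzf4, lies at chr10:128630843-128645991 on the - strand and has 1 measured transcript of 8 exons. It had 127, 141 and 80.5 CPM in the KO-labelled units, against 196, 199, 195 and 186 CPM in the WT units. The WT units lay close together, and every KO-labelled unit was below them, KO3 the farthest. The log2 fold change was -0.74 ± 0.18, a level 0.599 of that in WT (edgeR FDR 0.0267). It was negative in all 21 alternative fits. It stayed past FDR 0.05 without any 1 of 5 units, and not without WT2 (-0.73, edgeR FDR 0.0607) or WT4 (-0.76, edgeR FDR 0.0647). With the GC and length offset Ikzf4 still passed the test.

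Ikaros, Ikzf1, at chr11:11685003-11772926 on the + strand, was the steadiest member. It had 579, 579 and 506 CPM in the KO-labelled units, against 513, 615, 567 and 580 CPM in the WT units, and the groups overlapped. The log2 fold change was -0.04 ± 0.14 (edgeR FDR 0.875). Aiolos, Ikzf3, at chr11:98464902-98546031 on the - strand, had 343, 395 and 270 CPM in the KO-labelled units, against 344, 208, 328 and 321 CPM in the WT units. WT2 stood below the other WT units and KO2 above all other units. The log2 fold change was 0.16 ± 0.20 (edgeR FDR 0.608). Pegasus, Ikzf5, at chr7:131388652-131410521 on the - strand, had 64.1, 66.9 and 60.8 CPM in the KO-labelled units, against 85.6, 76.7, 65.4 and 85.1 CPM in the WT units. WT3 lay within the range of the KO-labelled units and the other WT units lay above it. The log2 fold change was -0.29 ± 0.13 (edgeR FDR 0.155), and with the GC and length offset it was 0.21.

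**Figure D2:**
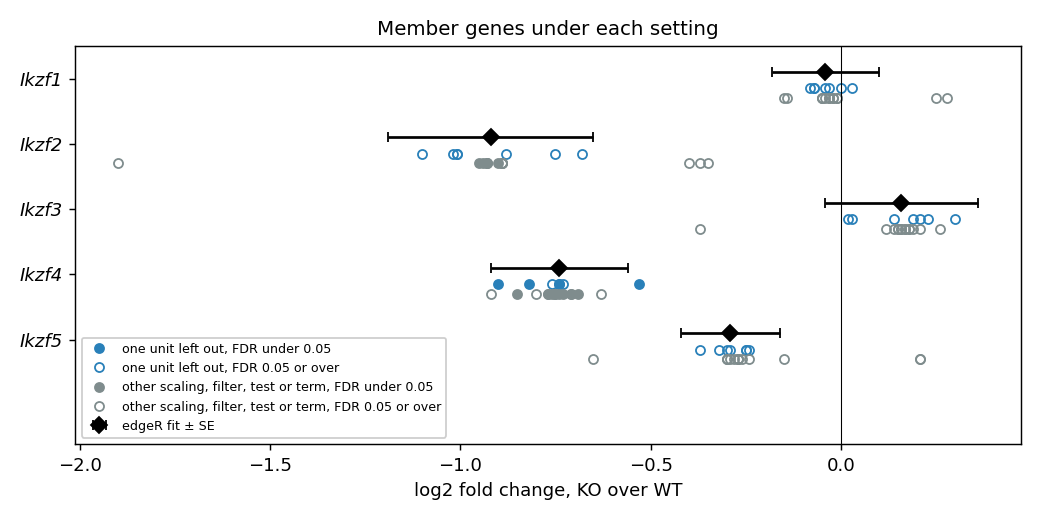
Log2 fold change (KO-labelled over WT, horizontal axis) of each member: black diamonds are the edgeR fit with its SE, blue points leave out 1 unit each, and grey points use another scaling, filter, test or model term; filled points have an FDR under 0.05. Ikzf2 and Ikzf4 stay negative throughout, Ikzf2 between -1.90 and -0.35 and Ikzf4 between -0.92 and -0.53, and the values of Ikzf1, Ikzf3 and Ikzf5 fall on both sides of 0. The -1.90 of Ikzf2 comes from the fit with a term for B cell and myeloid markers, which nearly followed the groups.

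The summed markers of other cell types also differed between the groups. The 14 B cell markers summed to 597, 507 and 289 CPM in the KO-labelled units, against 218, 146, 126 and 152 CPM in the WT units, and 9 of 14 passed as higher. The 14 myeloid markers summed to 839, 431 and 1940 CPM in the KO-labelled units, against 139, 21.2, 24.0 and 38.1 CPM in the WT units, with 8 of 14 higher. The 8 measurable erythroid and platelet markers of 10 summed to 162, 83.4 and 1780 CPM in the KO-labelled units, and to 36.6 to 57.7 CPM in the WT units, with 1 higher, Itga2b. KO3 thus had the highest myeloid and erythroid sums of the 7 units and also the lowest Ikzf1, Ikzf2, Ikzf4 and Ikzf5, while its Ikzf3 was the lowest of the KO-labelled units only.
The 7 plasma cell markers summed to 951 to 2210 CPM in the KO-labelled units and 184 to 494 CPM in the WT units, with 3 of 7 higher. The 10 dendritic cell markers summed to 67.0 to 112 CPM in the KO-labelled units and 30.1 to 45.1 CPM in the WT units, with 5 of 10 higher, and the 9 cytotoxic markers to 61.2 to 110 CPM in the KO-labelled units and 38.5 to 48.2 CPM in the WT units, with 4 of 9 higher. No marker was at 0 in all KO-labelled units. Among the markers at 0 in at least 1 WT unit were Cd14, Itgam, S100a8, Elane, Flt3, Clec9a, Itgax, Batf3, Cd209a, Clec10a, Klf1, Pf4 and Tnfrsf17. With the mean of the B cell and myeloid markers as a further term, Ikzf2 was at -1.90 ± 0.57 (edgeR FDR 0.240) and Ikzf4 at -0.63 ± 0.46 (edgeR FDR 0.526). In that fit 29 of all genes passed. The term, a mean of centred log2 CPM, was 2.41, 1.78 and 2.18 in the KO-labelled units. In the WT units it was -0.09, -2.6, -2.31 and -1.38. It nearly followed the groups, so the fit can hardly separate it from the group, and no size of change is read from it.

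Levels can be compared between members only per length. As CPM per kilobase of exon sequence, the means in the KO-labelled units were 96.0 for Ikzf1, 50.8 for Ikzf2, 38.4 for Ikzf3, 19.4 for Ikzf4 and 11.2 for Ikzf5. In the WT units they were 98.5 for Ikzf1, 95.8 for Ikzf2, 34.3 for Ikzf3, 32.4 for Ikzf4 and 13.7 for Ikzf5. By this measure the order of the means was the same in both groups, but the gaps differed. In the KO-labelled units Ikzf1 (87.6 to 100 CPM per kilobase) lay above Ikzf2 (32.5 to 63.1) in every unit, while Ikzf2 and Ikzf3 (30.8 to 45.1) overlapped. In the WT units Ikzf1 (88.8 to 106) and Ikzf2 (74.3 to 127) overlapped, as did Ikzf3 (23.8 to 39.3) and Ikzf4 (31 to 33.2). By CPM per kilobase, Ikzf5 was the lowest member in every unit.

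As a share of the family's summed TPM (transcript abundance that weighs each transcript by its effective length), Ikzf4 made up 5.15%, 4.54% and 3.52% in the KO-labelled units, against 6.94%, 9.44%, 7.40% and 7.07% in the WT units. The groups did not overlap, and the mean difference was -3.31 percentage points; the exact two-sided permutation p was 0.0571, the smallest that 3 against 4 units allow, and 0.286 after adjustment over the 5 shares. Ikzf2 made up 19.7%, 20.7% and 16.9% in the KO-labelled units, against 30.4%, 22.7%, 20.6% and 26.3% in the WT units. The groups overlapped slightly, at KO2 and WT3 (difference -5.89 points, exact permutation p = 0.114, adjusted 0.286). From counts over exon length instead of TPM, Ikzf2 made up 24.8%, 25.9% and 18.6% in the KO-labelled units, against 42%, 29.6%, 30.3% and 36.1% in the WT units. The groups then did not overlap (difference -11.4 points, exact permutation p = 0.0571). Ikzf1 held 43.6% ± 4.52 of the family in the KO-labelled units and 37.8% ± 4.16 in the WT units (SD). Ikzf3 held 27.7% ± 2.33 in the KO-labelled units and 23.7% ± 2.77 in the WT units, and Ikzf5 held 5.14% ± 0.574 in the KO-labelled units and 5.83% ± 1.10 in the WT units. With exact permutation p-values of 0.343, 0.171 and 0.400, and a design that cannot reach 0.05, none of these shares was shown to differ. From counts over exon length the difference was 8.81 points for Ikzf1, in place of 5.85, and 5.32 points for Ikzf3, in place of 4.04 (exact permutation p = 0.114 and 0.0571). Short transcripts weigh heavily in TPM: Ikzf1-206, of 242 bases with an effective length of 43.85, had 22.2 to 76.3 TPM over the units. By mean TPM the order of the members was not the same in both groups. In the KO-labelled units Ikzf3 (123 TPM) lay above Ikzf2 (85.4 TPM), and Ikzf5 (22.2 TPM) above Ikzf4 (19.6 TPM). In the WT units Ikzf2 (111 TPM) lay above Ikzf3 (106 TPM), and Ikzf4 (33.6 TPM) above Ikzf5 (25.4 TPM).

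**Figure D3:**
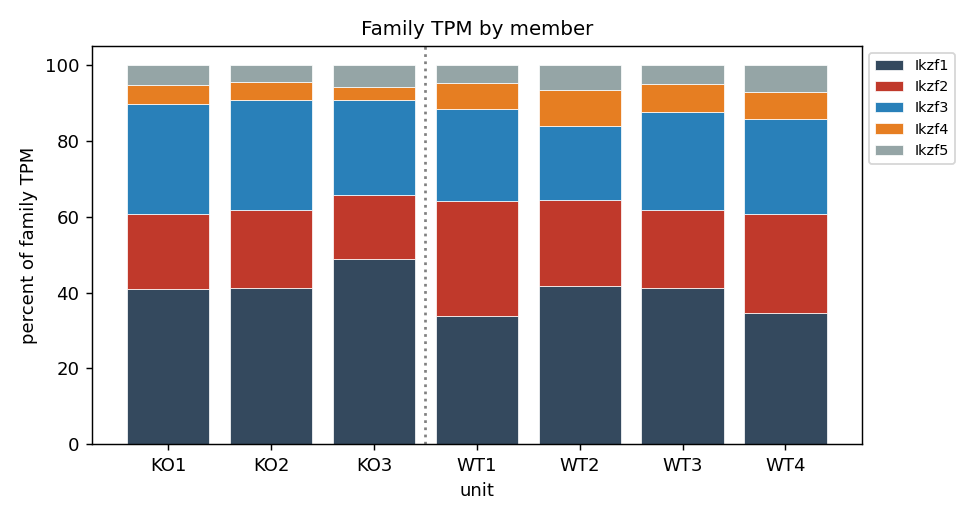
Share of each member in the summed TPM of the family (percent, stacked from 0) in the KO-labelled units (left of the dotted line) and the WT units (right). Ikzf4 takes 3.52% to 5.15% of the bar in the KO-labelled units and 6.94% to 9.44% in the WT units.

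The longest transcript of Ikzf2 held a smaller share of its reads in every KO-labelled unit than in any WT unit. This was not particular to Ikzf2. The longest coding transcripts of Ikzf1, Ikzf3 and Ikzf5 shifted in the same direction, also without overlap (exact permutation p = 0.0571 each, values given below). The form Ikzf2-201 (8 exons, 526 residues, 6 finger motifs) held 96.6%, 95.4% and 91.7% of Ikzf2 reads in the KO-labelled units, against 98.6%, 99.6%, 98.4% and 98.6% in the WT units. The reads outside it were 3.42%, 4.64% and 8.26% in the KO-labelled units, against 1.40%, 0.382%, 1.59% and 1.35% in the WT units. Every KO-labelled unit was above every WT unit, with KO3 the highest. The mean difference was 4.26 percentage points (exact permutation p = 0.0571, the smallest the design allows), 4.2 with the first sample of each unit alone and 4.31 with the second, and 2.85 without KO3. As a share of TPM it was 33.7 points, since the short Ikzf2-206 has an effective length of 162 bases and Ikzf2-201 one of 9079. The share of reads outside Ikzf2-201, and the shares by transcript given below with a permutation p, were not among the planned tests. Their p-values were not adjusted, and no such share was computed for genes outside the family. Whether the shift is shared by genes across the libraries was thus not tested.

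Ikzf2-206 is the member transcript that passed the test, and its 5′ end is printed because it sets it apart. It begins at a first exon of its own, chr1:69685252-69685300 on the - strand, spliced to the same coding exon as Ikzf2-201, and its annotation stops after 361 bases, inside the exon before the 168-base finger exon, with 99 residues and 0 finger motifs. The last 12 bases of each first exon are in capitals, followed by the shared exon up to and including the start codon.
Ikzf2-201, junction of chr1 positions 69685694 and 69684172: ACAATTTCTTTTcactgcactttgactatg
Ikzf2-206, junction of chr1 positions 69685252 and 69684172: GCCTGTTTTCCAcactgcactttgactatg
Of the words of 31 bases in Ikzf2-206, 49 of 331 occur in no other transcript of Ikzf2, those of its own first exon. For these 49, transcripts of other genes were not looked at separately.

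Ikzf2-206 was assigned 99.4, 205 and 137 reads in the KO-labelled units, against 0, 0, 7.6 and 0 reads in the WT units. All 6 KO-labelled samples had reads, between 41.8 and 123 each, and the 7.6 WT reads came from 1 of 8 samples. These were 0.332% (95% Wilson interval 0.273% to 0.405%), 0.714% (0.623% to 0.818%) and 0.644% (0.545% to 0.761%) of the Ikzf2 reads in the KO-labelled units. WT3 had 0.022% (0.0112% to 0.0434%). WT1, WT2 and WT4 had 0 reads, with upper Wilson limits of 0.0204%, 0.0217% and 0.0243%, and 3 reads would have been 0.016%, 0.017% and 0.019% of their Ikzf2 reads. Intervals and limits cover counting error only. Its TPM was 10.9, 29.0 and 11.7 in the KO-labelled units and 0, 0, 1.11 and 0 in the WT units, a difference of 3.78 ± 0.44 on the log2(TPM + 1) scale (limma FDR 0.0105), where 2.23% of 33272 transcripts passed. The transcript met the mean TPM minimum of 1 through the KO-labelled units alone. It passed in all 7 fits without 1 unit, with FDR up to 0.047. An edgeR test on transcript counts, added after seeing the data, gave a log2 fold change of 5.49 ± 1.23 and an FDR of 0.0968. The summed B cell, myeloid and erythroid markers were higher in the same units. Their part in these reads was not tested.

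In the test of transcript usage, which asks whether the transcripts of a gene change unequally, Ikzf2 passed (edgeR diffSpliceDGE F test, FDR 0.00264), where 5.47% of 8161 genes did. With the Simes form of the test its FDR was 0.0426, where 5.06% passed. On simulated data both forms called more unchanged genes than an FDR of 0.05 allows, the F test more so. The F test FDR of Ikzf2 was 0.0645 without KO3, 0.0713 with a filter of 10 reads per group and 0.247 with the unit numbers as a block. The filter of 10 reads left out Ikzf2-206, which had 7.6 reads in WT3 and 0 in the other WT units. In the main fit Ikzf2-206 entered the test only through the KO-labelled units, where it was high. A change in Ikzf2 usage thus depends on the settings, among them whether this form is tested. At the level of single transcripts, where 1.28% of transcripts passed, Ikzf2-206 had a usage change of 4.43 on the log2 scale (edgeR diffSpliceDGE FDR 0.0239), and no other member transcript passed.

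The Ikzf2 forms that lack whole coding exons from inside Ikzf2-201 are printed at the junctions that define them, with the exon after the junction in capitals.
Ikzf2-201, exon 5 to 6, chr1 positions 69570493 and 69548736: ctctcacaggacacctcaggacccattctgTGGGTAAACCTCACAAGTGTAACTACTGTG
Ikzf2-204, chr1 positions 69570493 and 69542370: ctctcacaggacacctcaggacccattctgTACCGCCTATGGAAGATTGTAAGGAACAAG
Ikzf2-208, chr1 positions 69548599 and 69539492: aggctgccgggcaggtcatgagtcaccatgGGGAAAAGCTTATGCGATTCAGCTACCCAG
Ikzf2-209, chr1 positions 69683210 and 69548736: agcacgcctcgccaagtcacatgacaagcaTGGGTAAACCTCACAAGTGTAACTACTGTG
Ikzf2-204 lacks the exon at chr1:69548599-69548736 and codes for 4 finger motifs, without numbers 1 and 4 of Ikzf2-201. Ikzf2-208 lacks the exon at chr1:69542227-69542370 and keeps 5 motifs, all but number 1, the same as Ikzf2-202, which has that exon. Both Ikzf2-204 and Ikzf2-208 use a shorter exon, chr1:69577859-69578047, in place of chr1:69577781-69578047. Ikzf2-209 lacks the 168-base exon and the exon before it, and keeps 3 motifs, numbers 4, 5 and 6, the last 2 of which are the carboxyl-terminal pair.

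Ikzf2-204 had 4.03, 4.24 and 1.59 TPM in the KO-labelled units, against 0, 0.468, 0.726 and 0.345 TPM in the WT units. The groups did not overlap, but the difference of 1.59 ± 0.37 did not pass (limma FDR 0.0681). Ikzf2-208 had 3.50, 5.01 and 7.44 TPM in the KO-labelled units, against 2.94, 0.296, 3.74 and 0.270 TPM in the WT units (limma FDR 0.218). Ikzf2-209 had 0.00818, 2.85 and 8.58 TPM in the KO-labelled units, against 0.631, 0.137, 1.25 and 0 TPM in the WT units (limma FDR 0.382), so KO1 was within the WT range and KO3 far above it. Together these 3 forms held 1.66%, 2.04% and 6.35% of Ikzf2 reads in the KO-labelled units, against 0.316%, 0.147%, 0.742% and 0.0724% in the WT units, without overlap (exact permutation p = 0.0571, unadjusted and not planned). The estimates rest on few words: among the transcripts of Ikzf2, 27, 29 and 30 words of 31 bases are particular to Ikzf2-204, Ikzf2-208 and Ikzf2-209.
Between the 2 samples of KO1, reads moved between forms: Ikzf2-204 had 51.1 and 215 reads, and Ikzf2-208 had 224 and 5.18. The main form, Ikzf2-201, had 56.0, 69.2 and 29.6 TPM in the KO-labelled units, against 138, 76.0, 93.0 and 107 TPM in the WT units (difference -1.04 ± 0.32, limma FDR 0.127). Ikzf2-202, which has 5 motifs, was at 0.760 to 3.50 TPM in the KO-labelled units and 0 to 2.14 TPM in the WT units (limma FDR 0.589), and the retained intron Ikzf2-203 at 0.810 to 2.46 TPM in the KO-labelled units and 0.704 to 3.83 TPM in the WT units (limma FDR 0.875).

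**Figure D4:**
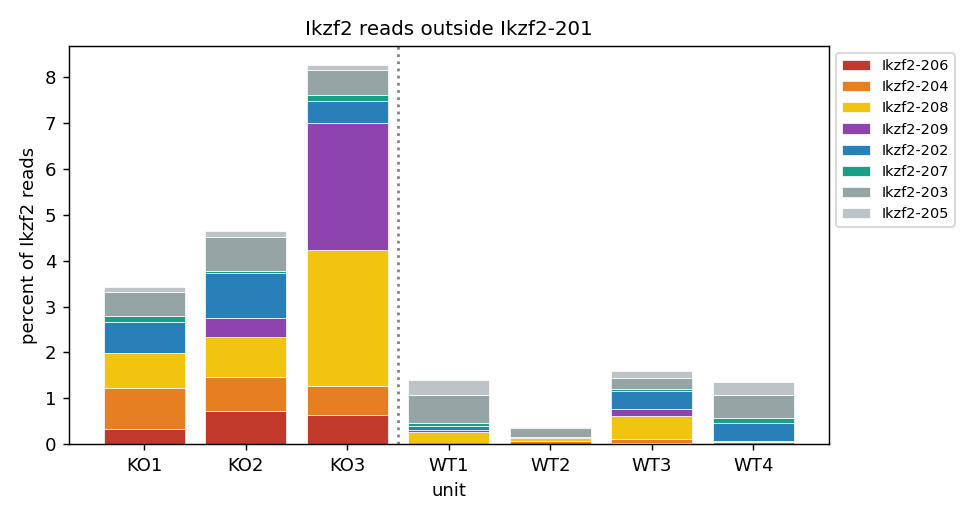
Share of Ikzf2 reads (percent, stacked from 0) assigned to each transcript other than Ikzf2-201 in the KO-labelled units (left of the dotted line) and the WT units (right). The bars reach 3.42% to 8.26% in the KO-labelled units and 0.382% to 1.59% in the WT units, and KO3 is set apart by Ikzf2-208 and Ikzf2-209.

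Ikzf1 was divided between a pair of long forms that differ by 1 coding exon of 60 bases, at chr11:11740950-11741009 on the + strand, present in Ikzf1-203 (535 residues) and absent from Ikzf1-204 (515 residues). A further form, Ikzf1-201 (428 residues), skips both this exon and the one of 261 bases at chr11:11748311-11748571, and with it finger motif 1. The 3 junctions after the shared exon are shown, with the exon that follows in capitals, since they are what separates the forms.
Ikzf1-203, chr11 positions 11707904 and 11740950: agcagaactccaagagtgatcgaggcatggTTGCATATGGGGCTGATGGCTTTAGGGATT
Ikzf1-204, chr11 positions 11707904 and 11748311: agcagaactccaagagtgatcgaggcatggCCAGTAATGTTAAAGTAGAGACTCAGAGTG
Ikzf1-201, chr11 positions 11707904 and 11754007: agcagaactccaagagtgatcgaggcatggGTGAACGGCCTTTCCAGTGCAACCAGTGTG

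Ikzf1-203 held 56.7%, 44.5% and 46.2% of Ikzf1 reads in the KO-labelled units, against 50.8%, 38.0%, 48.1% and 49.1% in the WT units. The ranges overlapped in part (exact permutation p = 0.629). Ikzf1-204 held 41.3%, 46.5% and 38.7% in the KO-labelled units, against 47.4%, 60.9%, 49.6% and 49.6% in the WT units. The ranges did not overlap, by a small margin at KO2 and WT1 (exact permutation p = 0.0571). Ikzf1-201 was assigned 0.0806, 1410 and 3870 reads in the KO-labelled units and 0 in each WT unit. KO2 and KO3 thus stood apart from KO1, which had practically none, and the difference of 3.33 ± 1.13 on the log2(TPM + 1) scale did not pass (limma FDR 0.157). Without KO1 it was 5 (limma FDR 0.00537), and Ikzf1 then also passed the usage test (edgeR diffSpliceDGE F test, FDR 4.67e-07, against 0.873 with all units).
None of the 1512 words of Ikzf1-201 is particular to it, so its reads were assigned by the estimate and not by sequence of its own. The forms that lack the 261-base exon (Ikzf1-201, Ikzf1-202 and Ikzf1-205) together held 1.64%, 8.41% and 14.5% of Ikzf1 reads in the KO-labelled units, against 1.2%, 0.878%, 1.76% and 0.862% in the WT units. KO1 lay within the WT range (exact permutation p = 0.114). Ikzf1-202, Ikzf1-205 and Ikzf1-206 did not pass as single transcripts (limma FDR 0.547, 0.792 and 0.644).

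**Figure D5:**
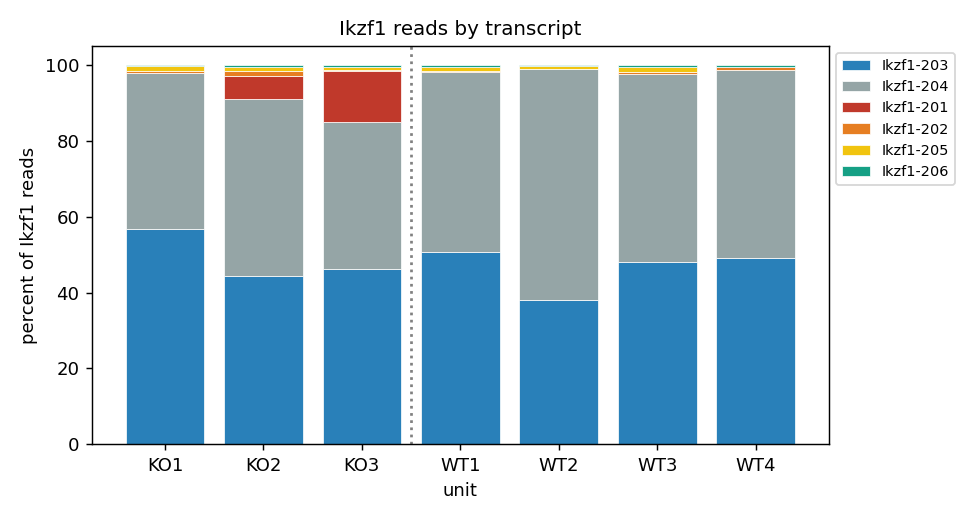
Share of Ikzf1 reads (percent, stacked from 0) by transcript in the KO-labelled units (left of the dotted line) and the WT units (right). Ikzf1-203 and Ikzf1-204 fill most of every bar, and Ikzf1-201 appears in KO2 (6.23%) and KO3 (13.5%).

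The transcripts of the remaining members did not pass. Ikzf3-201 (507 residues) had 71.8, 90.3 and 55 TPM in the KO-labelled units, against 78.0, 45.0, 82.3 and 69.1 TPM in the WT units (limma FDR 0.892). The forms of Ikzf3 outside it held 9.21%, 12% and 9.54% of its reads in the KO-labelled units, against 8.47%, 6.91%, 8.27% and 9.03% in the WT units, a separation of less than a percentage point at KO1 and WT4 (exact permutation p = 0.0571). Of these, Ikzf3-202 had 12.9 to 30.3 TPM in the KO-labelled units and 4.17 to 18.7 TPM in the WT units (limma FDR 0.491). Ikzf3-204 had 22.0 to 43.1 TPM in the KO-labelled units and 18.1 to 34.4 TPM in the WT units (limma FDR 0.610).
Ikzf4-201 had 20.5, 25.6 and 12.7 TPM in the KO-labelled units, against 34.0, 32.3, 37.2 and 30.8 TPM in the WT units, without overlap (difference -0.80 ± 0.24, limma FDR 0.118); the gene passed in the count test and this transcript, its only one, did not pass in the transcript test. Ikzf5-201 had 11.1, 12.6 and 9.41 TPM in the KO-labelled units, against 16.6, 14, 13.4 and 15.9 TPM in the WT units (limma FDR 0.248). The shorter forms of Ikzf5, which keep fewer finger motifs, held 8.57%, 11.5% and 15.8% of its reads in the KO-labelled units, against 4.32%, 3.64%, 8.14% and 3.55% in the WT units (exact permutation p = 0.0571; usage test, edgeR diffSpliceDGE F test, FDR 0.328). Without WT3, where 811 genes passed the usage test, the FDR of Ikzf5 was 0.00034. Ikzf5-205 had 4.13 to 6.29 TPM in the KO-labelled units and 0 to 3.20 TPM in the WT units (limma FDR 0.136), and Ikzf5-203 and Ikzf5-204 had limma FDR 0.868 and 0.490.

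The family acts through corepressors. Of 17 corepressor partners, 0 were higher and 1 was lower, where 6.52% of all genes were called lower, with a median log2 fold change of 0.17 beside 0.06 over all genes tested. At an unadjusted p under 0.05, 3 were higher and 3 lower, DESeq2 called 1 higher and 2 lower, and limma-voom called 0 and 1. The member that fell was Mbd2, the methyl-CpG binding subunit of NuRD, with 114, 116 and 118 CPM in the KO-labelled units, against 152, 180, 144 and 184 CPM in the WT units (log2 fold change -0.51 ± 0.13, edgeR FDR 0.0307). Chd4, the NuRD remodeller, averaged 588 ± 20 CPM in the KO-labelled units and 536 ± 55 CPM in the WT units (edgeR FDR 0.546). Ctbp1, the partner of Eos, averaged 149 ± 37.1 CPM in the KO-labelled units and 117 ± 21.2 CPM in the WT units (edgeR FDR 0.228); both were named outside the rule, for their role.

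Cereblon is the substrate receptor through which lenalidomide, in human cells, sends Ikaros and Aiolos to degradation. Of 7 genes of its ubiquitin ligase, 1 was higher and 2 were lower (median log2 fold change -0.12, against 0.06 over all genes), where 13.6% of all genes passed and 6.52% were called lower. DESeq2 and limma-voom gave the same counts. Crbn, cereblon itself, had 72.0, 67.3 and 53.0 CPM in the KO-labelled units, against 92.6, 97.0, 96.7 and 91.8 CPM in the WT units (log2 fold change -0.56 ± 0.13, edgeR FDR 0.0247). Cul4b, a cullin scaffold, averaged 61.4 ± 10.7 CPM in the KO-labelled units and 87.9 ± 6.29 CPM in the WT units (-0.52 ± 0.14, edgeR FDR 0.0406). Dda1, a ligase accessory subunit, averaged 63.5 ± 7.43 CPM in the KO-labelled units and 43.5 ± 6.75 CPM in the WT units (0.54 ± 0.15, edgeR FDR 0.0428).

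Of 21 other transcription factors of regulatory T cells, 0 were higher and 3 were lower (median -0.15), a share close to the 13.6% of all genes that passed in either direction; 6.52% were called lower. At an unadjusted p under 0.05, 3 were higher and 5 lower, and DESeq2 and limma-voom each called 0 higher and 3 lower. Maf, which directs interleukin 10 and follicular programmes, had 60, 55 and 93.2 CPM in the KO-labelled units, against 209, 163, 147 and 236 CPM in the WT units, without overlap (log2 fold change -1.44 ± 0.23, edgeR FDR 0.00629). Cbfb, the partner of the Runx factors, averaged 127 ± 24.7 CPM in the KO-labelled units and 226 ± 34.2 CPM in the WT units (-0.83 ± 0.17, edgeR FDR 0.0151). Bcl11b, a T cell identity factor, averaged 342 ± 74.8 CPM in the KO-labelled units and 530 ± 37.5 CPM in the WT units (-0.63 ± 0.17, edgeR FDR 0.0350).
Of the surface and signature genes of regulatory T cells, most of those measured fell. Here 13 of 20 were lower and 0 were higher, with a median of -0.87, where 6.52% of all genes were called lower. Like the other lists, this one was chosen with earlier results of these data known, so the count is no independent support. At an unadjusted p under 0.05, 15 were lower and 0 higher, and DESeq2 called 14 lower and limma-voom 13, with 0 higher. Nt5e, the ectoenzyme CD73, averaged 118 ± 1.03 CPM in the KO-labelled units and 265 ± 19.9 CPM in the WT units (-1.17 ± 0.12, edgeR FDR 0.000814). Nrp1, a semaphorin receptor that like Helios marks thymic regulatory T cells, averaged 101 ± 3.51 CPM in the KO-labelled units and 255 ± 35.6 CPM in the WT units (-1.34 ± 0.14, edgeR FDR 0.000851). Tigit, an inhibitory receptor, was at 7.79 ± 0.764 CPM in the KO-labelled units and 24.5 ± 4.09 CPM in the WT units (-1.65 ± 0.21, edgeR FDR 0.00161). Penk, the enkephalin precursor, was at 5.60 ± 2.12 CPM in the KO-labelled units and 20.9 ± 2.92 CPM in the WT units (-1.90 ± 0.29, edgeR FDR 0.00442).

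Of 10 cytokine genes that the family and Foxp3 help to silence, 4 had enough reads to be tested and 0 passed in either direction by edgeR (median -0.07). At an unadjusted p under 0.05, 1 was lower and 0 higher, and DESeq2 and limma-voom each called 1 lower. It was Tnf, with 13.3, 16.7 and 16.7 CPM in the KO-labelled units, against 23.0, 27.5, 24.0 and 19.0 CPM in the WT units (edgeR FDR 0.0625). Il2 was not among them: it had 19, 7 and 9 reads in the KO-labelled units, against 0, 0, 6 and 2 reads in the WT units, of which WT1, WT2 and WT4 were less deep than any KO-labelled unit. Il17a had 16, 7 and 28 reads in the KO-labelled units and 0 in each WT unit. The other cytokines too low to test did not all follow it. Il5 had 8, 0 and 0 reads in the KO-labelled units, against 0, 3, 15 and 0 in the WT units. In the same order, Csf2 had 10, 4 and 10 against 0, 5, 10 and 4. Il13 had 10, 9 and 0 against 2, 0, 2 and 0, and Il22 had 2, 1 and 18 against 0, 0, 0 and 1. Of 10 Notch pathway genes, whose targets Ikaros is known to repress in thymocytes, 9 were tested, with 1 higher and 1 lower (median -0.15), where 13.6% of all genes passed. At an unadjusted p under 0.05, 4 were higher and 1 lower, DESeq2 called 3 higher and 1 lower, and limma-voom called 1 of each. Hes1, a Notch target, had 6.73, 5.23 and 5.61 CPM in the KO-labelled units, against 2.12, 0.488, 0.175 and 0.305 CPM in the WT units (log2 fold change 3 ± 0.74, edgeR FDR 0.0323). Rbpj, the DNA-binding factor of the pathway, had 74.7, 70.1 and 70.0 CPM in the KO-labelled units, against 104, 110, 106 and 117 CPM in the WT units (-0.61 ± 0.11, edgeR FDR 0.0101).

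Likeness was measured as the root mean square difference between log2 CPM profiles over the 7 units, each centred on its own mean, among 8642 genes with at least 10 CPM. The profiles hold the difference between the groups. A change like that of the member thus follows from the choice of its nearest genes, and their test results are no separate support. Within the family Ikzf1 and Ikzf5 were the most alike (0.20), followed by Ikzf2 and Ikzf4 (0.27), and Ikzf2 and Ikzf3 were the least alike (0.60). The genes nearest to Ikzf2 were Scai (0.11), Fgf13 (0.12) and Zfp182 (0.12). Scai had 128, 127 and 74.6 CPM in the KO-labelled units, against 238, 154, 148 and 204 CPM in the WT units, the same order of high and low units as Ikzf2 but for KO1 and KO2, and for WT2 and WT3. None of the 3 passed the gene test (edgeR FDR 0.0582, 0.0626 and 0.0570). Those nearest to Ikzf4 were Zc3h6, Ift80 and Pigm (0.07 each), which passed as lower with edgeR FDR 0.0444, 0.0487 and 0.0131. Nearest to Ikzf1 were Fam50a (0.03), Chfr (0.04) and Ppp1r21 (0.04), to Ikzf3 Hmbox1 (0.05), Dnah8 (0.06) and Mrtfb (0.07), and to Ikzf5 Atp13a3, Ccdc174 and Prkaa1 (0.05 each).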

How the data were processed

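The authors deposited 1 kallisto table for each of 14 samples; the submitters' processing notes name kallisto and GRCm38, with no version. The authors deposited expected counts per transcript, not normalized, and TPM, which kallisto scales by effective length. Lengths and effective lengths are other columns, per the file headers. Per the labels' protocols the TruSeq libraries were non-stranded.

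The 88198 transcripts were joined to GENCODE annotation; 2079 had no gene (1.17% to 1.28% of the reads) and were left out. The 2 samples that share a title's first number were summed and rounded, since no label says that they are separate animals: their chi-square per degree of freedom over genes was 1.44 to 1.90, against at least 12.8 between units of a group. TPM per unit were recomputed from the sums. The spread behind each p-value is that of the units, part of which may be technical.

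Genes were tested with edgeR 4.0.16 (R 4.3.3; TMM, filterByExpr, robust quasi-likelihood fit, group as the only term), transcripts with limma 3.58.1 on log2(TPM + 1) at a mean TPM of at least 1, and transcript usage with edgeR diffSpliceDGE, each with Benjamini-Hochberg adjustment over all features tested at 0.05. The n is 3 KO-labelled and 4 WT units. Shares were compared by exact permutation over 35 assignments, two-sided. The shares of members in the family were planned, and those of transcripts in a gene were not. The steps were tested on simulated data. Alternatives were DESeq2 1.42.0 and limma-voom, other scalings, offsets and filters, a replicate block, a cell marker term, single samples and leaving out each unit. The members, lists and naming rule were chosen with earlier results of these data known. The rule names the members, their transcripts past the TPM minimum, Foxp3, Il2, up to 4 called genes of each list with the smallest adjusted p, and the 3 most alike genes of each member. Other genes were named for their role or, as Il17a, Tnf and Tln1, after their values were seen. The remaining untested cytokines were named to give that part of the list in full. A withheld item among the cell type markers is not reported here.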

Additional observations from a re-analysis of the deposited data

Results flagged for a closer look

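In the WT group, where 31 sets of 4 values of members and their transcripts were looked at, 2 held a unit far from the others; chance alone gives about 1 in 20. Ikzf3 was at 208 CPM in WT2, against 344, 328 and 321 CPM in the other WT units. Without WT2 its log2 fold change was 0.02 (edgeR FDR 0.945). Ikzf2-206 was at 1.11 TPM in WT3, from 1 of its 2 samples, and at 0 TPM in the other WT units. Without WT3 its difference was 4.05 on the log2(TPM + 1) scale (limma FDR 0.00833).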

How the results depend on the processing

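The unit numbers did not pair the groups: the deviations of same-numbered units correlated at 0.03, -0.12 and -0.05. With these numbers as a replicate block, 612 genes were called and 0 members, with Ikzf2 at a log2 fold change of -0.89 and Ikzf4 at -0.80; 0 member transcripts passed, with Ikzf2-206 at 3.69, and 0 members passed the usage test. The replicate block with the GC and length offset called 295 genes and 0 members, with Ikzf2 at -0.40, Ikzf4 at -0.92 and Ikzf5 at 0.21. The GC and length offset alone called 1342 genes and 1 member, with Ikzf2 at -0.37 and Ikzf5 at 0.21. The effective-length offset called 1 member, with Ikzf1 at 0.25 and Ikzf2 at -0.35. The term for B cell and myeloid markers called 29 genes and 0 members, with Ikzf1 at 0.28, Ikzf2 at -1.90, Ikzf3 at -0.37 and Ikzf4 at -0.63. The values of that term did not overlap between the groups, so it can hardly be separated from the group. With library size only, upper-quartile scaling, or the first sample of each unit alone, Ikzf2 was at -0.89 each time and 1 member, Ikzf4, was called. The DESeq2 Wald test called 3542 genes and both Ikzf2 and Ikzf4.

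Leaving out 1 unit in turn gave 758 to 1905 called genes, 0 to 1 called members, 1 to 2 called member transcripts and 0 to 2 members past the usage test (Ikzf1 with Ikzf2 without KO1, Ikzf5 with Ikzf2 without WT3). Log2 fold changes then ranged from -0.08 to 0.03 for Ikzf1, -1.10 to -0.68 for Ikzf2 and -0.90 to -0.53 for Ikzf4. The filter of 10 reads per group dropped Ikzf2-206 and left 0 members past the usage test. The share of Ikzf5 in the family, from counts over exon length, differed by 0.282 points in place of -0.692. The share of Ikzf2 differed by -11.4 points in place of -5.89, and that of Ikzf1 by 8.81 in place of 5.85. The test of Ikzf2-206 on transcript counts gave 5.49. The cause of these differences was not tested. The direction of Ikzf2 and Ikzf4 was the same in all 21 alternatives. Depth limits Ikzf2-206, Il2 and the minor transcripts.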
